A study of Rattus norvegicus with 6 samples.

Results

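Metalloproteases are enzymes that cut proteins with a zinc ion in their active site. Those that act at and outside the cell surface shed membrane proteins, trim matrix proteoglycans and collagens, and process peptides, and the tissue inhibitors of metalloproteinases (TIMPs) bind the active site of many of them. In the oligodendrocyte lineage such enzymes are known for matrix turnover around growing processes and for the release of growth factors and adhesion molecules from the membrane. The genes described here were chosen by symbol, from the ADAM, ADAMTS, ADAMTS-like, MMP and TIMP families, the tolloid proteases, Reck, neprilysin, the endothelin-converting enzymes and carboxypeptidases of the A, D, E, M and Z types. Of the 70 such symbols in the probe annotation, 60 had values, of 13355 genes measured in all; the other 10 (Adam2, Adam3a, Adam5, Adam6, Adam18, Adam28, Adam34, Cpa3, Mmp10 and Mmp13) were empty on every array. Adam10 and Cpe were not analysed here.

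RNA was compared between 3 control samples of primary rat oligodendrocyte progenitor cells (OPCs), labelled unstimulated at 48 h, and 3 samples given fibrinogen, the soluble precursor of the fibrin clot, for 48 h in differentiation medium. Both groups derive from neonatal pups, at postnatal day 1 to 2, and their cells first recovered in proliferation medium with PDGF and NT3; the medium of the controls during the 48 h, the strain, the sex and any pooling of pups are not given in the sources used here. The series title asks whether fibrinogen activates BMP signaling in these cells. Values are log2 expression from Affymetrix arrays, so 1 unit is a doubling, and changes are fibrinogen minus control with a moderated standard error (SE). No label says that the arrays of a group came from separate cultures, so the p-values measure only the spread between these arrays.

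Array medians lay between 5.78 and 5.84. Correlations between arrays of 1 group were 0.991 or higher across genes. The OPC markers were well represented: all 6 measured had means above the array's median probe, and mean list values were 10.16 to 10.25 in control and 10.47 to 10.54 in fibrinogen arrays. Of the 5 astrocyte markers 3 rose (list mean 7.89 to 7.96 in control, 8.30 to 8.38 in fibrinogen arrays), and of the 5 oligodendrocyte markers 3 fell (9.44 to 9.54 against 9.08 to 9.16). Of the 6 OPC markers 3 rose. Of the 5 neuron markers 1 rose (Elavl4, change 0.90) and 1 fell (Syt1, change -1.16). None of the 5 had a mean below the median probe, and list means were 7.48 to 7.63 in control and 7.35 to 7.55 in fibrinogen arrays. Of the 6 microglia markers 1, Itgam, fell, 5 of the 6 changes were negative, and the list mean was 4.24 to 4.58 in control and 4.16 to 4.23 in fibrinogen arrays, without overlap. None of the 5 fibroblast and pericyte or the 3 endothelium markers passed, at list means of 4.67 to 4.91 and 3.80 to 4.17. These marker shifts accompany every change below, and their part in it was not tested. In such mixed RNA, fewer cells of a type and less RNA per cell cannot be told apart.

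With fibrinogen, 6 of the 60 genes rose and 4 fell (limma, Benjamini-Hochberg adjusted p under 0.05 over all 13355 genes). The risers were the inhibitors Timp1 and Timp4, the membrane-type matrix metalloproteases Mmp15 and Mmp16, the secreted Mmp19 and the endothelin-converting enzyme Ece1; the genes that fell were the proteoglycanase Adamts4, its relative Adamts3, the sheddase Adam17 and the carboxypeptidase Cpm. All 10 changes were under 2-fold. Across all genes tested, 7.16% were called, 4.16% upward and 3.00% downward. Of the 60 changes 25 were positive and 35 negative. Their median was -0.04, against 0.00 over all genes; without genes below the median brightness it was 0.155 over the 18 members left, against 0.027 over all genes left. Control and fibrinogen arrays did not overlap for 22 of the 60, against 27.0% of all genes. The 39 dimmer members, with a mean under the median probe value, gave 1 call (Mmp19), while the other 21 gave 9; among all genes, 1.93% of the dimmer and 11.2% of the brighter were called. The number of members that fell was 2 without control 1, control 2, control 3 or fibrinogen 1, and 3 without fibrinogen 2 or fibrinogen 3.

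**Figure D1:**
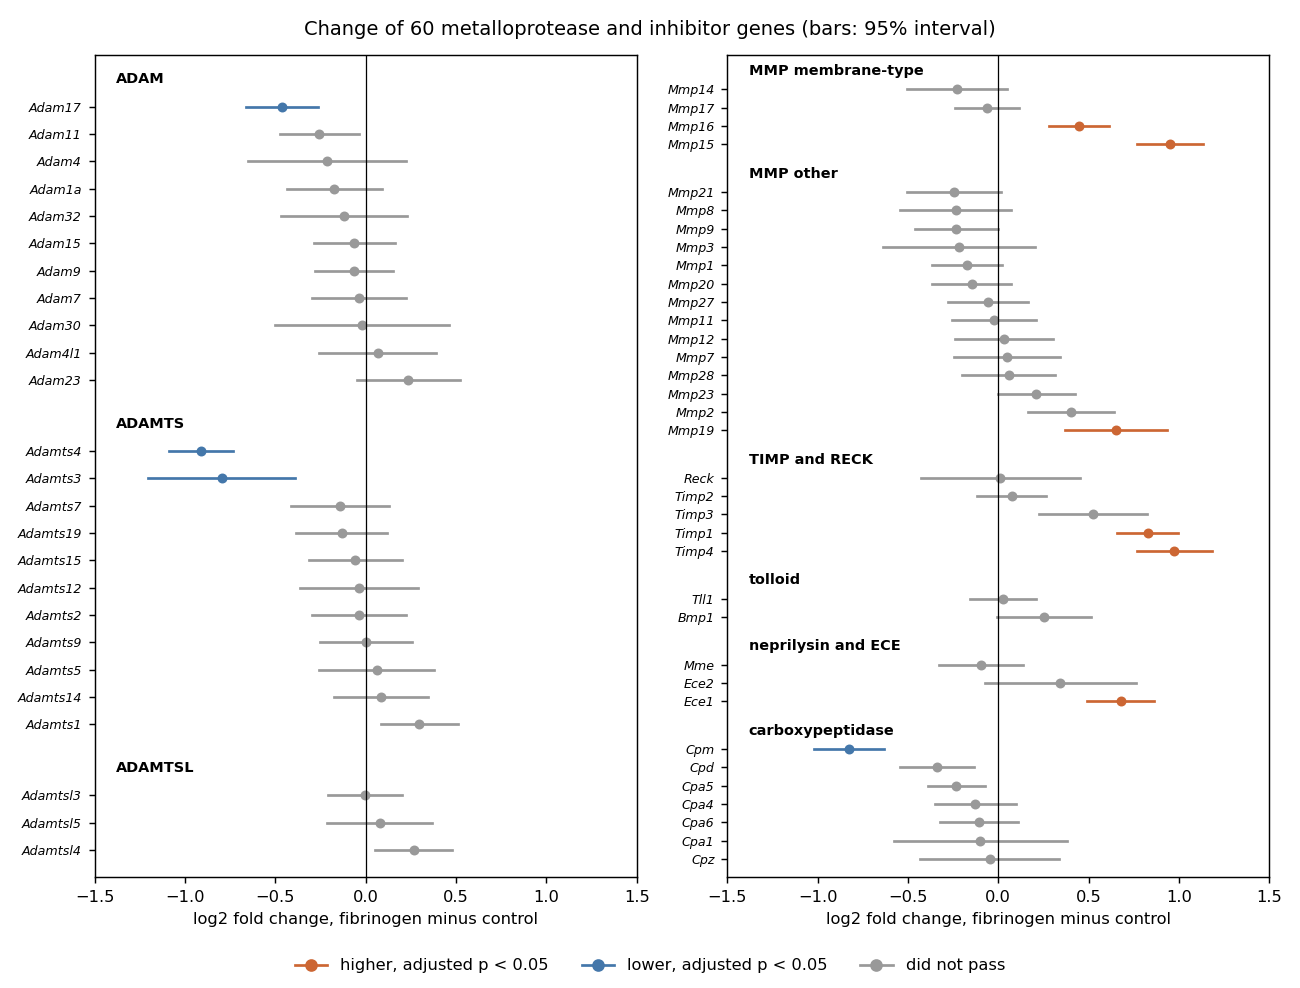
Change of each of the 60 genes with fibrinogen on the log2 scale (horizontal axis), grouped by family; points are estimates over 3 against 3 arrays, bars their 95% intervals, and colour shows the call. The intervals of most genes reach or lie near 0. The 6 risers and 4 fallers do not all stand apart from the rest. Timp3 did not pass at a change of 0.52, while Mmp16 passed at 0.45 and Adam17 at -0.46.

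**Figure D2:**
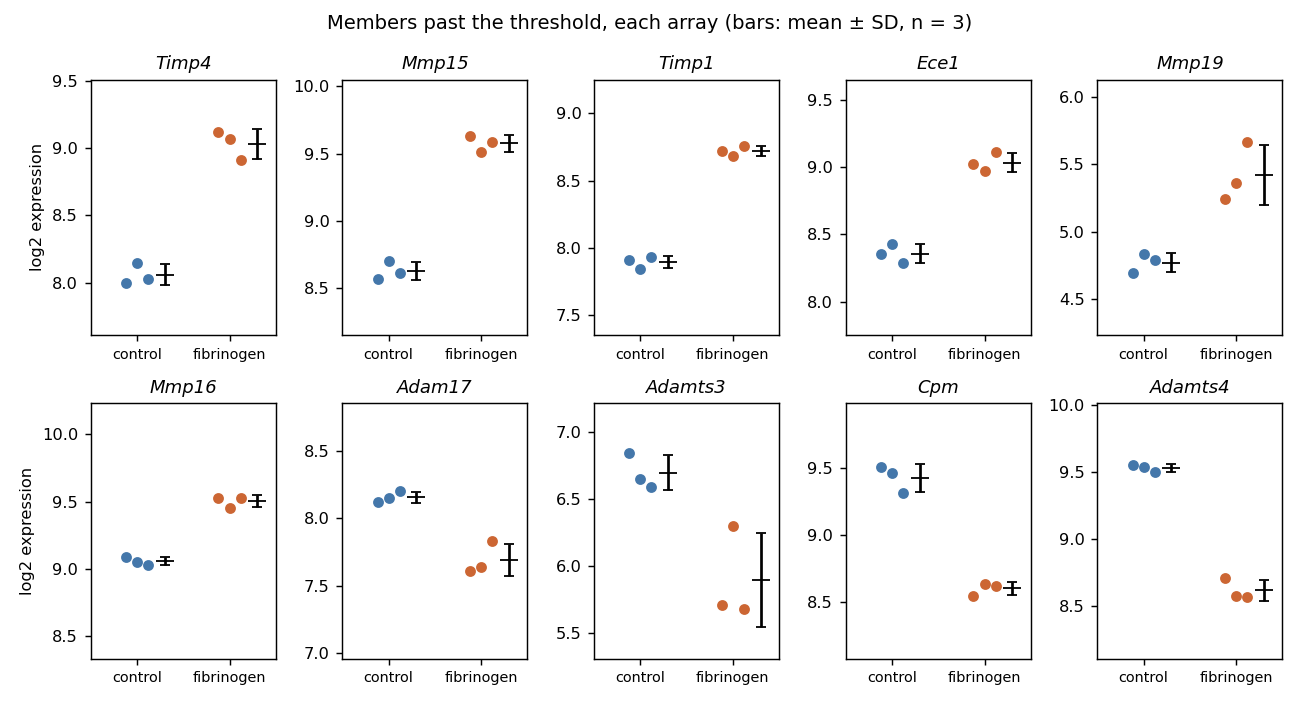
Log2 expression on each of the 6 arrays for the 10 genes past the threshold, ordered from the largest rise to the largest fall; points are arrays, bars the mean ± SD (n = 3), and every panel spans the same number of log2 units. No control array overlaps a fibrinogen array in any panel, and the fibrinogen arrays of Adamts3 are the most spread.

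For the genes with the largest rises and the largest fall, the 250 bases upstream of the RefSeq start are shown so that the reader can see what lies there. They are Timp1 (chrX:3771123-3771372, minus strand), Timp4 (chr4:149985205-149985454, minus strand), Mmp15 (chr19:9691001-9691250, minus strand) and Adamts4 (chr13:86202761-86203010, plus strand), all from RefSeq's GRCr8 table and written 5′ to 3′ along the gene. Capitals mark every match, on either strand, to any of 9 motifs.
Timp1: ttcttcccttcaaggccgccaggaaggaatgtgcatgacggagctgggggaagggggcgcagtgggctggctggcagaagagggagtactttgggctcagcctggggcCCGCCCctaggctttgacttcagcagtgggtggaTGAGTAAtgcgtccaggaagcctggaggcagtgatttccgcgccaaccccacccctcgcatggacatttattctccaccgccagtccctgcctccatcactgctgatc
Timp4: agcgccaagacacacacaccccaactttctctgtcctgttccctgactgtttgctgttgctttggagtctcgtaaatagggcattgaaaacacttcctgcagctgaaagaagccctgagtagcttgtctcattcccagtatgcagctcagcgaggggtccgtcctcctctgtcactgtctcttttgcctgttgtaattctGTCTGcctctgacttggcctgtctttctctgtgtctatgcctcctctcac
Mmp15: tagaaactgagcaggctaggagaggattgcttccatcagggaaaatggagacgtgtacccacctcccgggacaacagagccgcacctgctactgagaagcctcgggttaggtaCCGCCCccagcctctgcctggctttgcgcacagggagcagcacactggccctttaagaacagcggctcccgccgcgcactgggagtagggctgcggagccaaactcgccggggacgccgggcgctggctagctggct
Adamts4: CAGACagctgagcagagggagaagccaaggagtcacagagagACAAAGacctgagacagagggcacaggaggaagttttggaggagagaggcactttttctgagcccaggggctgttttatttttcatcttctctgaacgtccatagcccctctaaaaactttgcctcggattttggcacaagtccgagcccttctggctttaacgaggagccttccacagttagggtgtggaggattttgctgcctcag

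Of the 60 genes, 42 had an upstream window in that table, among them 8 of the 10 called genes; Mmp16 and Mmp19 had none. The motif TGAGTAA, a variant of the AP-1 site, occurred 108 bases before the start of Timp1. It was in 2 of the 42 member windows and in 2.38% of all 33469 windows. The AP-1 motif TGANTCA itself (6.34% of windows) was in 6 of the 42 but in none of the 8. The GC-rich SMAD motif GGCGCC (8.69%) was in 12 of the 42 member windows, those of Adam17, Cpm and Ece1 among them. The short SMAD motif CAGAC, which 42.9% of windows hold, was in 15 of the 42, those of Timp4, Adamts4, Adamts3 and Cpm among them. The SP1 motif GGGCGG (30.5%) was in 22 of the 42 member windows, those of Timp1, Mmp15, Ece1, Adam17, Adamts3 and Cpm among them. The SOX motif ACAAAG (16.3%) was in 2 of the 42, that of Adamts4 among them. The motifs GTCTAGAC (a SMAD palindrome, 0.173%), TGACGTCA (the cAMP response element, 1.59%) and CCGGAAGT (an ETS site, 3.1%) were in none of the 8. No matches in the 4 printed windows share bases. The motifs were chosen after the changes were known, and a match is a description of letters only.

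Of the 4 TIMP genes, 2 rose. TIMPs are secreted proteins whose N-terminal end plugs the catalytic cleft of metalloproteases. Timp4 read 8.0, 8.15 and 8.03 on the control arrays and 9.12, 9.07 and 8.91 on the fibrinogen arrays. Every fibrinogen array lay well above every control array, a 1.96-fold rise (log2 change 0.97, SE 0.09, adjusted p = 0.00216 in limma). Timp1, the TIMP best known for induction by cytokines and injury, read 7.91, 7.84 and 7.93 in control and 8.72, 8.68 and 8.76 with fibrinogen. Its groups were tight and far apart (log2 change 0.83, SE 0.07, adjusted p = 0.00187 in limma). Dropping arrays singly left both calls in place, with adjusted p up to 0.0172 for Timp4 and 0.0166 for Timp1.

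Timp3, a matrix-bound inhibitor that also acts on ADAM17 and on aggrecanases such as ADAMTS4, just missed the threshold. Its control arrays read 8.16, 8.59 and 8.14 and its fibrinogen arrays 8.84, 8.81 and 8.81. The groups did not overlap, but control 2 stood well above the other control arrays. The change was 0.52 (SE 0.13, adjusted p = 0.0560 in limma). Without control 2 the adjusted p in limma was 0.0140, and with any other single array dropped it was 0.138 to 0.166. Timp2, which takes part in the activation of pro-MMP2 at the cell surface, read 9.11, 9.30 and 9.24 in control and 9.34, 9.23 and 9.30 with fibrinogen. Its groups overlapped, and the 95% interval of its change ran from -0.12 to 0.27. Reck, a membrane-anchored regulator of MMPs, had overlapping groups too, with a change of 0.01 (95% interval -0.43 to 0.45). That value is not steady: fibrinogen 3 read 6.16 where the other fibrinogen arrays read 5.55 and 5.51, and without it the change was -0.20.

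In the RefSeq gene table, Timp1, Timp3 and Timp4 each lie inside a synapsin gene (Syn1, Syn3 and Syn2), a family of synaptic vesicle proteins, and Timp1 and Timp4 are on the strand opposite to their host. The synapsin values were looked up after the TIMP results were known. Syn2, which holds Timp4, had overlapping groups (5.27, 5.44 and 5.13 in control; 5.12, 4.97 and 5.29 with fibrinogen), at a change of -0.15 (95% interval -0.43 to 0.12). Syn1, which holds Timp1, read 7.40, 7.64 and 7.43 against 7.92, 7.78 and 7.76 and did not pass (change 0.33, adjusted p = 0.0914 in limma). Syn3, which holds Timp3, read 6.05, 6.14 and 6.17 against 6.58, 6.53 and 6.86 and rose by 0.54 (adjusted p = 0.0275 in limma). Dropping any single array ended the Syn3 call (adjusted p up to 0.0774). Where the probes of these sets lie is not given in the sources used here, so signal shared between host and guest was not tested.

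**Figure D3:**
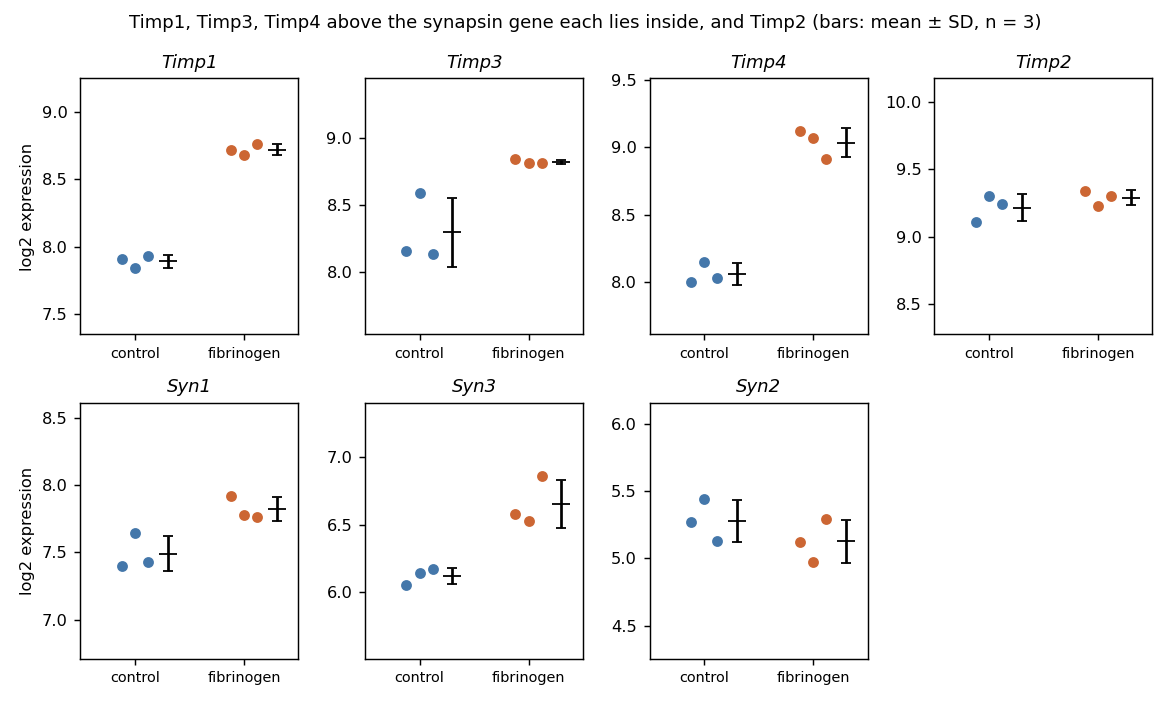
Log2 expression on each array for Timp1, Timp3, Timp4 and Timp2 (upper row) and for the synapsin gene that holds each of the first 3 (lower row); points are arrays, bars the mean ± SD (n = 3), and all panels span the same number of log2 units. Timp4 is higher on all fibrinogen arrays while Syn2 overlaps, and the control array that stands apart for Timp3 is control 2.

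Of the 18 MMP genes measured, 3 rose and none fell. MMPs cut matrix and cell surface proteins, and the membrane-type members are held on the cell surface. Mmp15 (membrane-type 2 MMP) read 8.57, 8.70 and 8.61 in control and 9.63, 9.51 and 9.59 with fibrinogen, a 1.93-fold rise without overlap (log2 change 0.95, SE 0.08, adjusted p = 0.00166 in limma). Mmp16 (membrane-type 3 MMP) read 9.09, 9.05 and 9.03 against 9.53, 9.45 and 9.53. Its arrays were just as tight around a smaller change of 0.45 (SE 0.07, adjusted p = 0.0126 in limma). The Mmp15 call held whichever array was dropped (adjusted p up to 0.0153); that of Mmp16 was lost without control 3, fibrinogen 1 or fibrinogen 3 (adjusted p = 0.0536, 0.0606 and 0.0574).

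The other membrane-type members did not rise with them. Mmp14, the prototype of the class, read 6.53, 6.21 and 6.20 in control and 6.15, 6.17 and 5.94 with fibrinogen, a change of -0.23 with a 95% interval from -0.50 to 0.05. Mmp17 was at -0.06 (95% interval -0.24 to 0.12). The interval of Mmp14 lies below that of Mmp15 and of Mmp16; the difference between members was not tested.

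Among the 14 other MMP genes, 13 had means below the median probe. Mmp19, a secreted MMP of that dim class, read 4.69, 4.83 and 4.79 in control and 5.24, 5.36 and 5.67 with fibrinogen. The fibrinogen arrays were all higher, with fibrinogen 3 the highest, and the change was 0.65 (SE 0.12, adjusted p = 0.0228 in limma). Dropping any of these ended that call: control 1, control 2, control 3 and fibrinogen 2 (adjusted p from 0.0525 to 0.0703). Mmp2 (gelatinase A), the only one of the 14 above the median probe, read 6.07, 5.98 and 6.11 against 6.58, 6.27 and 6.52. Its groups did not overlap, but the change of 0.40 (95% interval 0.17 to 0.64) missed the threshold (adjusted p = 0.0607 in limma). Without fibrinogen 2 the adjusted p in limma was 0.0495, and with any other single array dropped it was 0.118 to 0.186. Mmp9 (gelatinase B) was dim, at 4.30 ± 0.06 in control and 4.07 ± 0.16 with fibrinogen (SD, n = 3), a change of -0.23 (adjusted p = 0.229 in limma). Changes of the remaining 11, the collagenase Mmp1, the stromelysin Mmp3 and the macrophage elastase Mmp12 among them, lay between -0.24 and 0.21.

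Of 11 ADAMTS genes, 2 fell and 9 did not pass. ADAMTS enzymes are secreted proteases that bind matrix, and several of them cut the lecticans, the large chondroitin sulfate proteoglycans of brain matrix. Adamts4 (aggrecanase 1), a known oligodendrocyte protease, read 9.55, 9.54 and 9.50 in control and 8.71, 8.58 and 8.57 with fibrinogen. The groups were tight and far apart, a 1.88-fold fall (log2 change -0.91, SE 0.08, adjusted p = 0.00166 in limma), and the call held whichever array was dropped (adjusted p up to 0.0143). Its oligodendrocyte expression places it beside the oligodendrocyte markers that fell, and that relation was not tested.

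Adamts3, which cuts procollagen N-propeptides, reelin and the precursor of VEGF-C, read 6.84, 6.65 and 6.59 in control and 5.71, 6.30 and 5.68 with fibrinogen. Fibrinogen 2 stood far above the other fibrinogen arrays, though still below all controls, and the change was -0.80 (SE 0.17, adjusted p = 0.0396 in limma). A second Adamts3 probe set read 6.24, 6.48 and 6.18 in control and 5.59, 5.68 and 5.86 with fibrinogen, a change of -0.59; with all probes tested, its adjusted p was 0.0394 and that of the first 0.0594 in limma. Dropping any single array except fibrinogen 2 ended the Adamts3 call (adjusted p from 0.0854 to 0.137).

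No other aggrecanase or ADAMTS gene passed. Adamts1 (6.18, 6.28 and 6.25 in control; 6.58, 6.38 and 6.64 with fibrinogen) did not overlap between groups, at a change of 0.30 (adjusted p = 0.111 in limma). Adamts5, the other main aggrecanase, overlapped (change 0.06, 95% interval -0.26 to 0.38), and so did Adamts9, which cuts versican (change 0.00, 95% interval -0.25 to 0.26); both were below the median probe. The ADAMTS-like genes encode matrix proteins with no protease domain. Of the 3 measured none passed: Adamtsl4, a microfibril-associated protein, was at 0.27 (adjusted p = 0.144 in limma) and Adamtsl5 at 0.08 (95% interval -0.22 to 0.37).

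Of 11 ADAM genes, 1 fell. ADAMs are membrane-anchored proteins, and the catalytic ones shed the outer part of other membrane proteins. Adam17, also called TACE, releases tumor necrosis factor and several ligands of the EGF receptor. It read 8.12, 8.15 and 8.20 in control and 7.61, 7.64 and 7.83 with fibrinogen, without overlap, a 1.38-fold fall (log2 change -0.46, SE 0.09, adjusted p = 0.0229 in limma). Dropping any single array except fibrinogen 3 ended that call (adjusted p from 0.0519 to 0.0903). Adam11, a neuronal ADAM without protease activity, read 7.33, 7.35 and 7.14 against 6.97, 6.95 and 7.13; the groups were barely apart and the change of -0.26 did not pass (adjusted p = 0.167 in limma). The other 9 lay between -0.21 and 0.24, and 5 of the 11 were below the median probe.

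Ece1, the membrane protease that converts big endothelin to endothelin, rose 1.60-fold. Its control arrays read 8.35, 8.43 and 8.29 and its fibrinogen arrays 9.02, 8.97 and 9.11, so the groups were separated by several times their spread (log2 change 0.68, SE 0.08, adjusted p = 0.00477 in limma; up to 0.0287 with single arrays dropped). Ece2 read 5.34, 5.41 and 5.81 against 5.76, 5.64 and 6.19; the groups overlapped, and the change was 0.34 (95% interval -0.07 to 0.76). Mme (neprilysin, a peptidase that degrades neuropeptides and amyloid beta) was dim, at 3.16 ± 0.14 in control and 3.07 ± 0.10 with fibrinogen (SD, n = 3).

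All 7 carboxypeptidase genes had negative changes, but 1 passed. Cpm, a membrane-bound carboxypeptidase that removes C-terminal arginine and lysine from peptides, read 9.51, 9.46 and 9.31 in control and 8.55, 8.64 and 8.62 with fibrinogen. That was a 1.77-fold fall without overlap (log2 change -0.82, SE 0.08, adjusted p = 0.00314 in limma), and it held whichever array was dropped (adjusted p up to 0.0220). Cpd, a carboxypeptidase of the trans-Golgi network, read 9.33, 9.56 and 9.35 against 9.08, 9.09 and 9.05. Its groups did not overlap, but the change of -0.34 missed the threshold (adjusted p = 0.0636 in limma) and passed with each array centred on its median (adjusted p = 0.0392). It did not pass with any single array dropped (adjusted p from 0.0815 to 0.178 in limma). Cpa5 was dim and very tight, at 3.97 ± 0.02 in control and 3.74 ± 0.01 with fibrinogen (SD, n = 3), and did not pass (adjusted p = 0.0916 in limma). The other 4 (Cpa1, Cpa4, Cpa6 and Cpz) were below the median probe and lay between -0.13 and -0.05.

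Neither tolloid protease passed. Bmp1, which cuts procollagens and the BMP antagonist chordin, read 6.14, 6.52 and 6.28 in control and 6.52, 6.52 and 6.66 with fibrinogen. The groups touched at 6.52, and the change was 0.25 (95% interval -0.01 to 0.52, adjusted p = 0.253 in limma). Tll1 was dim, with a change of 0.03 (95% interval -0.16 to 0.21).

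Genes that work with these proteases or are cut by their products were read from lists drawn from textbook knowledge. Across all genes tested 7.16% were called, 11.2% of the brighter and 1.93% of the dimmer. Among 7 measured partners of ADAM proteins, Tspan17, one of the tetraspanins that escort ADAM10, fell 1.68-fold (adjusted p = 0.00591 in limma). It read 7.97, 7.86 and 7.92 in control and 6.99, 7.25 and 7.26 with fibrinogen. Sh3pxd2a, a podosome scaffold that binds ADAM proteins, rose 1.59-fold (7.0, 7.06 and 6.97 against 7.75, 7.65 and 7.65; adjusted p = 0.00392 in limma). The other 5, the iRhom genes Rhbdf1 and Rhbdf2 that ADAM17 needs for its maturation among them, did not pass. The share called in this list was 28.6%. None of the 6 genes in the proprotein convertase list passed in limma, and none had an unadjusted p under 0.05. Some of these genes, Furin among them, encode enzymes that remove the prodomain of many metalloproteases. Pcsk6 was at 0.16 (adjusted p = 0.456 in limma). Pcsk2, a convertase listed with peptide processing, was at 0.29 (unadjusted p = 0.0293, adjusted p = 0.174 in limma).

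Of 29 genes of membrane proteins known to be shed, 5 rose, 1 fell and 23 did not pass (20.7% called, against 7.16% of all genes). Cx3cl1 (fractalkine, a membrane-bound chemokine that ADAM10 and ADAM17 release) had the smallest p. It read 7.79, 7.49 and 7.67 in control and 8.72, 8.56 and 8.73 with fibrinogen, a 2.03-fold rise without overlap (adjusted p = 0.00313 in limma). Cd44, Cspg4 and Notch1 rose by 0.73, 0.63 and 0.59; the Notch1 call ended when any single array except control 2 was dropped (adjusted p up to 0.0748). The other calls were Nrcam, a cell adhesion molecule, which rose by 0.56, and Aplp1, a relative of the amyloid precursor, which fell by 0.50; both were named after their values were seen. Dropping any single array except control 1 ended the Nrcam call (adjusted p up to 0.143), as did centring each array on its median (adjusted p = 0.0644). The Aplp1 call ended with the loss of any single array except control 3 (adjusted p up to 0.0969).

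Of 11 lectican and aggrecanase substrate genes, 1 rose and 2 fell (27.3% called, against 7.16% of all genes). Ncan, a lectican, rose by 0.66; Tnr, a lectican-binding glycoprotein, fell by 0.56, and Reln, the reelin gene, by 0.44, from 5.91, 6.01 and 6.13 to 5.57, 5.57 and 5.58. The Reln call ended with the loss of any single array except control 1 (adjusted p up to 0.0865), and that of Tnr without fibrinogen 1 or 3 (adjusted p = 0.0565 and 0.0533). The lecticans Acan, Bcan and Vcan did not pass, at 0.36, -0.14 and 0.10. Of 10 collagen, basement membrane and other MMP substrate genes, Col4a1 (a basement membrane collagen) rose by 0.53 and Fn1 (fibronectin) by 0.44 (20.0% called). The Col4a1 call was lost without control 3, fibrinogen 1 or fibrinogen 2 (adjusted p up to 0.0654), and that of Fn1 when any single array except fibrinogen 1 was dropped (adjusted p up to 0.103). Of 13 BMP1 substrates and enhancers 1 passed, Bgn, with a rise of 2.09. That share of 7.69% is near the share over all genes. Chrd, which encodes chordin, was at -0.04 and Pcolce, which enhances BMP1 on procollagen, at 0.37 (adjusted p = 0.119 in limma). The median change of these lists lay between -0.15 for the ADAM partners and 0.10 for the lectican list, against 0.00 over all genes.

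**Figure D4:**
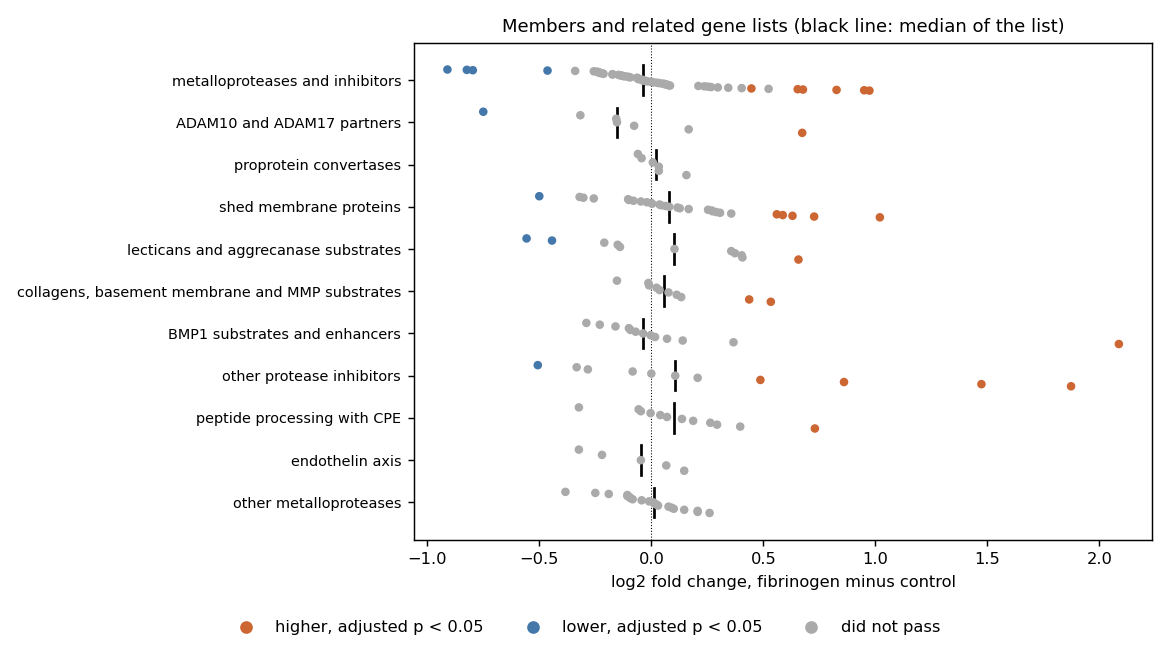
Log2 change with fibrinogen of each gene (points) of the 60 metalloprotease and inhibitor genes and of 10 related lists, with the list median as a black line and the call as colour. List medians lie close to 0 while single genes stand out on both sides, the farthest on the right being Bgn and Lxn.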

How the data were processed

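Values were used as the authors deposited them, on the log2 scale, for 6 arrays in 2 groups of 3 set by their titles. Per the submitters' processing notes the tools were RMA and limma (no version given); array design details, build and detection calls are not given in the sources used here. Values on every array were present for 23631 of 26312 probe rows, and 14083 of these had 1 gene symbol in the platform annotation. A gene was its probe with the highest mean, which gave 13355 genes; all 60 members matched a RefSeq gene record by gene number. Fibrinogen and control were compared in limma 3.58.1 (R 4.3.3; lmFit, eBayes, two-sided, no covariate, no filter), with Benjamini-Hochberg adjustment over all genes at 0.05 and intervals of 95%. The median SE over the members was 0.108. The script was tested on simulated arrays. Members, lists, named genes (all called members, all TIMP genes and Reck, preset members, the 2 largest changes per family, 6 near misses, up to 4 per related list) and tests were chosen with earlier results of these data known. The number of arrays limits the precision.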

Additional observations from a re-analysis of the deposited data

How the results depend on the processing

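The 14 alternatives were a replicate block, arrays centred on their median, 2 filters on dim genes, the mean of a gene's probes, eBayes with trend, an unmoderated test, all valued probes tested, and each array left out. Timp1, Timp4, Mmp15, Ece1, Adamts4 and Cpm kept their call in all of them (highest adjusted p = 0.0391, for Ece1). With 1 array left out, 4 to 6 members were higher and 2 to 3 lower. With the replicate block, 4 were higher and 2 lower, and 343 genes were called in all. Deviations of arrays with the same number correlated at 0.02, -0.135 and -0.074, and those with different numbers at -0.098 to 0.173. No label says what a number pairs. With 3 arrays per group, these correlations cannot decide whether equal numbers mark a shared culture or batch. The block and the unmoderated test ended the calls of Adam17 (adjusted p = 0.0664 and 0.0633), Adamts3 (0.083 and 0.164) and Mmp19 (0.051 and 0.103), and the block that of Mmp16 (0.0664). With all probes tested, the first Adamts3 probe set had an adjusted p of 0.0594 and the second 0.0394. With trend, and without the dimmest 25% of genes, 8 members were higher and 5 lower, Timp3, Mmp2 and Cpd among them. Centring moved the median change of all genes to -0.043 and the split of calls from 555 higher and 401 lower to 434 and 516; 6 members were higher and 5 lower. The 956 genes called in all became 500 in the unmoderated test, 358 to 592 with 1 array left out, 1639 with trend, and 1455 of 6673 without genes below the median brightness, where 7 of 18 members tested were higher and 4 lower.

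Changes near 0 turned sign without crossing the threshold. With arrays centred on their median, Adamts9 was at -0.0433, Reck at -0.0367 and Tll1 at -0.0200. With 1 array left out, the change of Adamts5 ran from -0.0333 to 0.2067, that of Adamts9 from -0.0833 to 0.0967, that of Adamtsl5 from -0.005 to 0.185, that of Reck from -0.20 to 0.125 and that of Tll1 from -0.0233 to 0.0667. The cause was not tested. Of 732 comparisons of a named gene under an alternative with its reported value, 607 kept direction and side, 96 lost and 16 gained a call, and 13 turned sign.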

Other observations

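Of 11 protease inhibitor genes outside the TIMP family, 4 rose and 1 fell (45.5% called, against 7.16% of all genes). A2m (alpha-2-macroglobulin, a secreted trap for proteases of every class, metalloproteases included) read 6.91, 7.33 and 7.45 in control and 8.88, 8.58 and 8.65 with fibrinogen. Every fibrinogen array lay more than 1 unit above every control array, a 2.78-fold rise (log2 change 1.47, SE 0.15, adjusted p = 0.00346 in limma; up to 0.0222 with single arrays dropped). Lxn (latexin, an inhibitor of A-type carboxypeptidases) rose by 1.87, while the A-type genes Cpa1, Cpa4, Cpa5 and Cpa6 all read below the median probe. Rarres1, a latexin relative, rose 1.81-fold, from 6.25, 5.88 and 5.81 to 7.01, 6.70 and 6.81; dropping fibrinogen 1 or 3 ended its call (adjusted p = 0.0606 and 0.0545). Cst3 (cystatin C, an inhibitor of cysteine proteases) rose 1.40-fold, and dropping any single array except control 1 ended that call (adjusted p up to 0.0771). Serpini1 (neuroserpin, named after its values were seen) fell by 0.51, and dropping any single array ended that call (adjusted p up to 0.114).

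None of 21 other metalloprotease genes passed in limma (2 with an unadjusted p under 0.05), against 7.16% of all genes. Among the 21 were the aminopeptidases Anpep and Lnpep, the insulin-degrading enzyme Ide and the mitochondrial proteases Yme1l1 and Oma1. Their changes lay between -0.38 (Enpep, adjusted p = 0.132) and 0.26. Without fibrinogen 1 the adjusted p of Enpep in limma was 0.0486, and with any other single array dropped it was 0.179 to 0.325. Of 8 genes listed for the endothelin axis besides the converting enzymes, 5 were measured: Edn1, Edn2, Edn3, Ecel1 and Mmel1. No endothelin receptor was among these 5. None of the 5 passed in limma (1 with an unadjusted p under 0.05), and all 5 read below the median probe. Edn3 was at -0.22 (adjusted p = 0.202 in limma). Of 12 genes of peptide processing, 1 passed (8.33%, near the share over all genes). Scg3 (secretogranin 3, a granule protein) rose 1.66-fold, from 9.32, 9.25 and 9.15 to 10.06, 9.96 and 9.89.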
